A study of Homo sapiens with 2 samples.

Results

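ZNF is the symbol given to numbered human genes whose proteins carry zinc fingers, most of them DNA-binding fingers held together by paired cysteines and histidines. The members described here are the genes with a symbol of ZNF, a number and at most 1 further letter in the platform annotation that had a bright enough probe set: at least 1 probe set at or above the median of all probe sets on either array. Of 491 such symbols on the array, 285 had a retained probe set and 206 did not, and the 285 stand among 11272 measured genes. The level on either array thus chose the members, and a gene dim on both arrays could not enter.

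The 2 arrays measured GFP-SAS, an established tongue squamous cell carcinoma line that carries green fluorescent protein. One group received an antisense oligonucleotide of mixed LNA and DNA directed at miR-361-3p, called the anti-miR here, and the other a non-target oligonucleotide, called the control oligo, each at 25 nM for 24 h. Each group holds 1 array, so no replicate error exists, no p-value is given, and a difference between the arrays cannot be told apart from a difference between any 2 cultures. A gene's value is the mean log2 RMA expression over its retained probe sets, and a difference is the value with the anti-miR less that with the control.

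The array medians were 4.64 with the anti-miR and 4.63 with the control oligo, and the 23 nonspecific control probe sets reached 7.16 with the anti-miR and 6.87 with the control oligo. Among the nonspecific control probe sets the median difference was 0.23 for the 11 with a GC count of 15 or more. For the 12 with a lower GC count it was -0.0038. The part of this background difference in the members' values was not tested. The 12 probe sets for poly-A spike-in transcripts differed by 0.32 ± 0.19 (SD) in the same direction as most members. Of 10 listed markers of squamous epithelium 7 were on the array under a symbol of their own and 6 were measured, among them the keratin KRT5 (8.89 with the anti-miR, 9.08 with the control oligo) and the epithelial cadherin CDH1 (8.64 with the anti-miR and 9.18 with the control oligo). Of the other 4 markers the integrin ITGA6 was 3.46-fold lower with the anti-miR, ITGB4 differed by -0.16, PERP by 0.07 and SFN by 0.16. No listed fibroblast marker of 5 and no leukocyte marker of the 4 on the array was measured. Of 4 endothelial markers 2 were measured, at 5.35 and 5.11 with the anti-miR and 5.03 and 4.69 with the control oligo, as were 2 of 4 skeletal muscle markers, all within the nonspecific range.

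Many ZNF proteins begin with a KRAB box, which recruits the co-repressor TRIM28 and, through it, the histone methyltransferase SETDB1 and heterochromatin proteins. These proteins are known for silencing transposable elements and other targets they recognise with long arrays of fingers. Their genes multiplied by tandem duplication and lie in clusters, above all on chromosome 19. Other ZNF genes encode transcriptional activators, chromatin partners, RNA-binding proteins or ribosome factors that share little beyond the fingers and the name.

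The inhibited microRNA is shown with its seed, bases 2 to 8, in capitals, since the seed is the part with which a microRNA pairs to its targets. The sequence and position are those of RefSeq, GRCh38.p14.
hsa-miR-361-3p (chrX:85903641-85903663, minus strand): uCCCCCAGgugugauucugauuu

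The ZNF genes were shifted towards higher values with the anti-miR. Of the 285 members, 72 (25.3%) were at least 1.5-fold higher with the anti-miR, against 8.23% of all measured genes, and 12 (4.21%) were at least 1.5-fold lower, against 14.2% of all genes. The other 201 members lay within 1.5-fold. At 2-fold 23 members (8.07%) were higher and 7 (2.46%) lower, against 1.23% and 6.98% of all genes. The median member differed by 0.33, with quartiles of 0.05 and 0.59, and the median of all genes by 0.13, with quartiles of -0.21 and 0.33. The difference was above 0 for 222 members, and 62.3% of all genes lay above 0. ZNF genes made up 2.53% of the measured genes, 7.76% of the genes at least 1.5-fold higher and 0.749% of those at least 1.5-fold lower. The offset of the poly-A controls, 0.32, is close to the median of the members. With it subtracted, the median was 0.0065 for the members and -0.19 for all genes. By 1.5-fold 32 members (11.2%) were then higher and 33 (11.6%) lower, against 1.86% and 23.2% of all genes. The part of this offset in the members' shift was not tested. Centred on the median of all genes, 50 members were higher and 21 lower, against 4.43% and 17.3% of all genes. After subtraction of a lowess trend over level 54 were higher and 21 lower, against 4.85% and 16.8%. Because the threshold on level admits a gene through its brighter array, the count was also made without it. Then 56 of 491 ZNF genes (11.4%) were at least 1.5-fold higher, against 4.397% of all genes, and 7 (1.43%) lower, against 7.37%. The median difference was then 0.16 for ZNF genes and 0.10 for all genes, against 0.33 and 0.13 with the threshold. Much of the gap between the medians thus depended on the threshold.

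**Figure D1:**
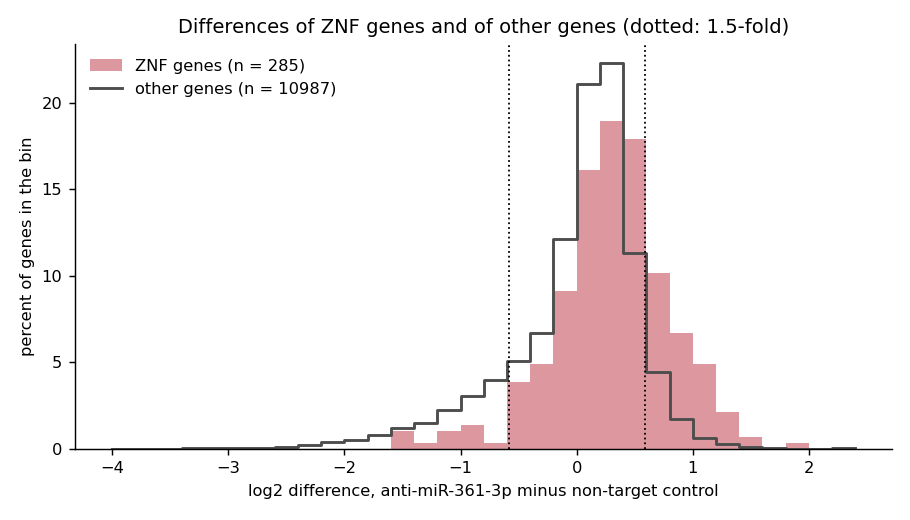
Percent of genes in bins of 0.2 of the log2 difference, anti-miR-361-3p minus non-target control, for 285 ZNF genes (red bars) and 10987 other genes (grey line); dotted lines mark 1.5-fold. The ZNF genes have more of their mass right of the upper line, 25.3% of them, and a thinner tail on the left.

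The members with the largest increases were mostly short genes of chromosome 19. Of the 12 largest, 8 lie on chromosome 19, and their lengths, the genomic span of a gene in the RefSeq table, ran from 8.35 to 33.3 kb. ZNF227, a gene of the chromosome 19 cluster described further on, had 7.15 with the anti-miR against 5.32 with the control oligo, 3.57-fold higher (1 probe set). ZNF441 had 6.55 with the anti-miR against 4.97 with the control oligo (3.00-fold, 1 probe set). ZNF468 had 6.22 with the anti-miR against 4.75 with the control oligo, and its 2 probe sets differed by 2.01 and 0.93. These leading members thus rest on 1 probe set each or on a pair that disagreed in size.

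For 2 further members, ZNF263 and ZNF268, 4 probe sets gave close values. ZNF263, a DNA-binding protein with a SCAN and a KRAB domain, had 7.43 with the anti-miR against 6.12 with the control oligo, a difference of 1.30 ± 0.11 (SD over 4 probe sets). ZNF268, a KRAB zinc finger gene, had 7.82 with the anti-miR against 6.53 with the control oligo, a difference of 1.29 ± 0.02 (SD over 4 probe sets). ZNF549 differed by 1.36 ± 0.21 (SD over 3 probe sets), at 6.14 with the anti-miR and 4.78 with the control oligo. ZNF232, which carries a SCAN domain, had 6.01 with the anti-miR and 4.82 with the control oligo, and ZNF473, whose protein takes part in the 3' end processing of histone transcripts, had 5.95 with the anti-miR and 4.77 with the control oligo. The 2 probe sets of ZNF473 differed by 1.56 and 0.79. The remaining increases among the first 12 rest on 1 probe set each. ZNF329 had 6.36 with the anti-miR against 5.01 with the control oligo, and ZNF397, a SCAN-domain gene, 5.93 with the anti-miR against 4.61 with the control oligo. ZNF419 had 6.41 with the anti-miR against 5.15 with the control oligo, and ZNF211 5.21 with the anti-miR against 4.02 with the control oligo. All 12 had control values inside the nonspecific range, where signal and background cannot be told apart, so their folds are not exact sizes. With the anti-miR 10 of the 12 lay within that range, all but ZNF263 and ZNF268. The control values of ZNF397 and ZNF211 lay below the array's median, so both entered through the anti-miR array. When each gene's mean took in its dim probe sets, ZNF397 differed by 0.65, ZNF232 by 0.78 and ZNF468 by 1.14, while the other 9 differed by 1.01 or more.

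The members with the largest decreases were long genes, several of them with described nuclear roles. The 12 largest, which are also all the members at least 1.5-fold lower, spanned 40.7 to 468 kb with a median of 130.03 kb, and 1 of them, ZNF573, lies on chromosome 19. All 12 spanned over 40 kb, against 5 of the 72 higher members and 69 of all 285. ZNF638, an RNA- and DNA-binding protein linked to splicing and to silencing of retroviral DNA, had 5.59 with the anti-miR against 7.09 with the control oligo, a difference of -1.50 ± 0.40 (SD over 6 probe sets). ZNF148, a transcription factor of GC-rich promoters, had 5.12 with the anti-miR against 6.56 with the control oligo, a difference of -1.44 ± 0.27 (SD over 9 probe sets). For both genes each probe set was lower with the anti-miR, from -1.88 to -0.91 for ZNF638 and from -1.74 to -0.78 for ZNF148. ZNF462, a chromatin-associated protein of development, had 6.004 with the anti-miR against 7.18 with the control oligo, with 2 probe sets at -1.35 and -0.99. ZNF292, a large zinc finger protein with a role in neurodevelopment, differed by -0.81 ± 0.19 (SD over 4 probe sets). ZNF609, known for a circular RNA made from its locus, differed by -1.02, with 3 probe sets from -1.49 to -0.67. ZNF451, a SUMO ligase, differed by -0.99, with 2 probe sets at -1.43 and -0.54.

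The other decreases had less support. ZNF33A had 4.22 with the anti-miR against 5.52 with the control oligo, but its 4 probe sets ranged from -1.91 to -0.06, the widest range of any member. ZNF407 (-1.42), ZNF573 (-1.03), ZNF827 (-0.99) and ZNF26 (-0.79) rest on 1 retained probe set each. ZNF618 differed by -0.88, with 2 probe sets at -0.998 and -0.76. With the anti-miR the gene values of all 12 lay within the nonspecific range, and those of ZNF33A, ZNF573 (4.34), ZNF827 (4.58) and ZNF618 (4.46) also lay below the array's median, so these folds are not exact sizes either. When each gene's mean took in its dim probe sets, ZNF407 differed by -0.39, ZNF573 by -0.48, ZNF827 by -0.40, ZNF26 by -0.37, ZNF609 by -0.52 and ZNF618 by -0.58, these 6 all short of 1.5-fold.

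**Figure D2:**
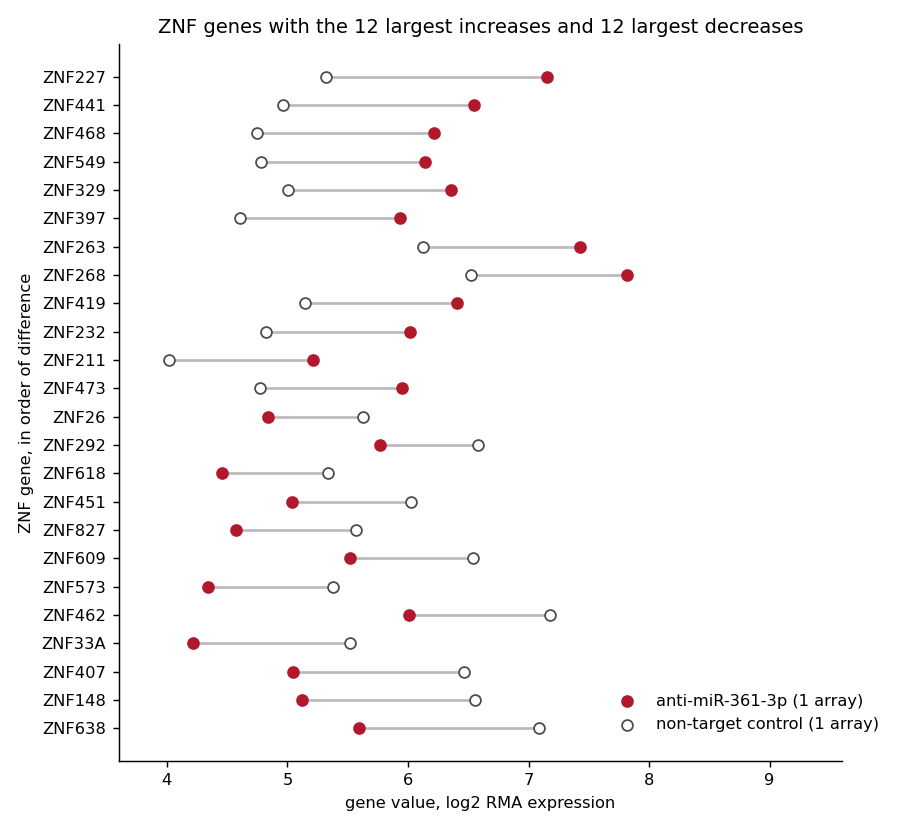
Gene values (log2 RMA expression, horizontal axis) of the 12 ZNF genes with the largest increases and the 12 with the largest decreases, ordered by difference; red points are the anti-miR-361-3p array and open points the non-target control array, 1 array each. The increases start from control values between 4.02 and 6.53, and the decreases from control values between 5.34 and 7.18.

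Between the retained probe sets of a member the median range of differences was 0.27, near the median difference of the members, 0.33. Of the 285 members 123 had several retained probe sets, and their pooled SD within a gene was 0.26, against 0.29 over the 6263 genes with several retained probe sets. This is a within-array technical error, since such probe sets can share probes, and it holds no variation between cultures. The difference had 1 sign in all probe sets for 80 members on the higher side and 25 on the lower side. The rest of the 123 had probe sets of both signs. All 32 members with several probe sets that were at least 1.5-fold higher, and all 8 that were at least 1.5-fold lower, had probe sets of 1 sign, but their choice used those same probe sets. ZNF genes are close relatives, and probe sets with the suffixes _s_at and _x_at can read several of them. The 113 retained _x_at probe sets had a median difference of 0.36 and the 63 _s_at probe sets 0.22, while the 228 _a_at and 104 plain _at probe sets had 0.27 and 0.24. With plain _at and _a_at probe sets alone, 57 of 223 members were higher and 11 lower, and ZNF468 differed by 0.93 and ZNF274 by 0.01.

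Few members were bright. The mean over both arrays lay above the highest nonspecific control probe set, 7.01, for 34 members, of which 7 were at least 1.5-fold higher (20.6%) and 0 lower. Over all 3708 genes above that level 9.76% were higher and 12.4% lower. The median difference of the 34 was 0.24, and that of the 3674 other genes above that level 0.13. The 6 members with the highest mean level are given next. ZNF664 had 9.42 with the anti-miR and 9.98 with the control oligo, a difference of -0.55 with 3 probe sets within 0.01 of each other. ZNF207, a spindle assembly and splicing factor, had 9.40 with the anti-miR and 9.56 with the control oligo. ZNF706 had 9.38 with the anti-miR and 9.43 with the control oligo, and ZNF770 had 8.90 with the anti-miR and 9.04 with the control oligo. ZNF622, which joins late steps of large ribosomal subunit assembly, had 9.14 with the anti-miR and 8.68 with the control oligo, and ZNF281, a transcription factor of pluripotency and mesenchymal programs, 8.74 with the anti-miR and 8.27 with the control oligo. None of these 6 reached 1.5-fold.

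Chromosome 19 held 116 of the 285 members. Of these, 40 (34.5%) were at least 1.5-fold higher and 1 (0.862%) lower, with a median of 0.43 and 105 of 116 above 0. Among the 169 members on other chromosomes 32 (18.9%) were higher and 11 (6.51%) lower, with a median of 0.23. Other genes of chromosome 19 also lay above the rest: 684 of them had a median of 0.25, against 0.11 for 10303 other genes elsewhere. Of the 684, 8.92% were at least 1.5-fold higher, close to the share over all genes, and 1.75% lower, against 15.3% of other genes elsewhere. Few decreases were thus seen in members and other genes of chromosome 19 alike. Of the chromosomes with at least 10 members, chromosome 1 (median 0.38, 16 members), chromosome 12 (0.36, 11 members) and chromosome 16 (0.35, 22 members) came next, and chromosome 8 was lowest (-0.04, 12 members). All 22 members on chromosome 16 were above 0. Among members above the nonspecific range the order was turned, at 0.14 over 5 members on chromosome 19 and 0.30 over 29 elsewhere. With the poly-A difference subtracted, the median was 0.11 on chromosome 19 and -0.094 elsewhere. Without the threshold on level the medians of ZNF genes were nearly equal, at 0.165 on chromosome 19 and 0.153 elsewhere. The gap between the chromosomes thus depended on the threshold that chose the members.

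Neighbouring members were compared in runs along the chromosome, in which at most 2 protein-coding genes without a ZNF symbol stand between neighbours and at least 5 members were measured. There were 14 such runs with 119 members, and 13 of the 14 had no or 1 member at least 1.5-fold lower and a median between 0.03 and 0.69. The other run, on chromosome 19 from ZNF283 to ZNF180, had the highest median, 1.03, and is described for that reason, so its counts support nothing. All of its 11 measured members were above 0, as were all members of several other runs, among them ZNF205 to ZNF597 and ZNF627 to ZNF791. By 1.5-fold 8 of the 11 were higher and 0 lower. In chromosomal order ZNF283 had 5.25 with the anti-miR against 4.64 with the control oligo, ZNF45 5.62 with the anti-miR against 5.05 with the control oligo and ZNF155 5.28 with the anti-miR against 4.53 with the control oligo. ZNF230 had 4.71 with the anti-miR against 3.68 with the control oligo, ZNF222 4.78 with the anti-miR against 3.63 with the control oligo and ZNF223 4.96 with the anti-miR against 3.86 with the control oligo. ZNF224, which encodes a KRAB repressor also described in apoptosis control, had 4.84 with the anti-miR against 4.36 with the control oligo. In the same order ZNF234 had 4.73 with the anti-miR against 4.64 with the control oligo, ZNF226 6.37 with the anti-miR against 5.32 with the control oligo, ZNF227 7.15 with the anti-miR against 5.32 with the control oligo and ZNF180 6.14 with the anti-miR against 5.00 with the control oligo. ZNF45, ZNF224 and ZNF234 are the 3 that stayed within 1.5-fold. The control values of ZNF155, ZNF230, ZNF222, ZNF223 and ZNF224 lie below the array's median. These members, with 1 probe set each, entered through the anti-miR array alone, which favours differences above 0. With dim probe sets kept the median of the run was 0.43. The annotation assigns 1 further probe set to both ZNF223 and its neighbour ZNF284.

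The run with the most measured members, from ZNF264 to ZNF8 near the end of chromosome 19, had 23 measured members, of which 11 were at least 1.5-fold higher and 0 lower, with a median of 0.49. It holds ZNF549, ZNF329, ZNF419 and ZNF211, named above, and ZNF264, at 7.05 with the anti-miR against 5.97 with the control oligo. ZNF586 (-0.46) and ZNF544 (-0.23) were its members below 0. A run on chromosome 16 from ZNF205 to ZNF597 had a median of 0.69 over 6 members, with ZNF200 (0.95), ZNF263 (1.30) and ZNF75A (1.02) next to each other. The run from ZNF101 to ZNF254 on chromosome 19, whose members include the large retroelement repressor ZNF91, had the lowest median, 0.03 over 9 members. A member's difference and that of the next measured member on chromosome 19 correlated with Pearson's r = 0.18 over 115 pairs (Spearman's rho = 0.18), which share arrays and, for relatives, possibly probes.

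**Figure D3:**
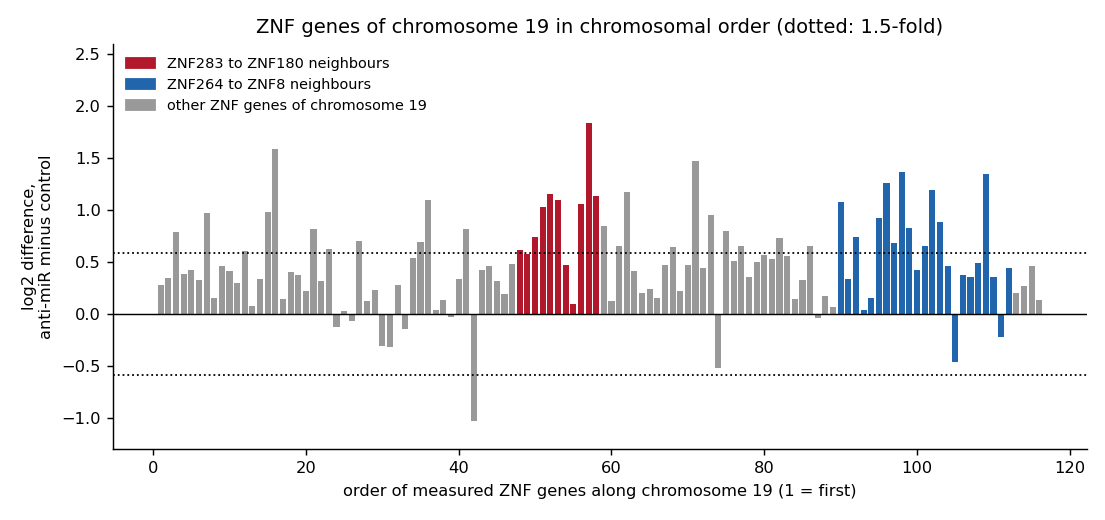
Log2 difference of each of the 116 measured ZNF genes of chromosome 19 (vertical axis, anti-miR-361-3p minus non-target control), in chromosomal order along the horizontal axis; red bars are the run from ZNF283 to ZNF180 and blue bars the run from ZNF264 to ZNF8. The 11 red bars are all above 0, and 1 grey bar, ZNF573, passes the lower 1.5-fold line.

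Promoters of the run from ZNF283 to ZNF180 are shown because it had the highest median of the runs. They are the 250 bases before the annotated start, from RefSeq, GRCh38.p14, for the 9 of the 11 members with a promoter in that table, including the 3 that stayed within 1.5-fold, and ZNF549 from the run near the chromosome's end stands beside them. Capitals mark CCGGAAG, the core bound by ETS factors, TTCTGGGAA, part of the element bound by ZNF143, and a longer form of that element, which overlaps it, all on either strand. The ZNF143 letters were picked after these promoters had been seen.
ZNF283 (chr19:43827071-43827320, plus strand): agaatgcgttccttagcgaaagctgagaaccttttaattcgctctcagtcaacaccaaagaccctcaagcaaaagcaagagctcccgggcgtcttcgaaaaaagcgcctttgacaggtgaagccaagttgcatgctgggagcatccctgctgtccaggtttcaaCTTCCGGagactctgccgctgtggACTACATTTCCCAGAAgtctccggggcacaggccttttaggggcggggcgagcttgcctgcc
ZNF45 (chr19:43935283-43935532, minus strand): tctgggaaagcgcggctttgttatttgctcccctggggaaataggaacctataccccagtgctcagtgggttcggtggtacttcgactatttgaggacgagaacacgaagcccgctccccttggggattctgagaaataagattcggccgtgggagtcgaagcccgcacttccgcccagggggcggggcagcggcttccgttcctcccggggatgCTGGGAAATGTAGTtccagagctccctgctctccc
ZNF230 (chr19:44002707-44002956, plus strand): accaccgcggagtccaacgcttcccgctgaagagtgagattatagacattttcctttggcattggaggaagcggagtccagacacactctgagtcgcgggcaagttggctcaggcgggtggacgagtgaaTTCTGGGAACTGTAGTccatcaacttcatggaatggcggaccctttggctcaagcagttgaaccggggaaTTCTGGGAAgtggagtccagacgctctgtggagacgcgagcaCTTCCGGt
ZNF222 (chr19:44025129-44025378, plus strand): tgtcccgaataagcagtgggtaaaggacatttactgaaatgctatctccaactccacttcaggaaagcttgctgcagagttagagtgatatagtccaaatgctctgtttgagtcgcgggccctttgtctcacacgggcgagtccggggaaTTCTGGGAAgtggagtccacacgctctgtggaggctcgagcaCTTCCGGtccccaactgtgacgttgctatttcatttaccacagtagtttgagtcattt
ZNF224 (chr19:44094111-44094360, plus strand): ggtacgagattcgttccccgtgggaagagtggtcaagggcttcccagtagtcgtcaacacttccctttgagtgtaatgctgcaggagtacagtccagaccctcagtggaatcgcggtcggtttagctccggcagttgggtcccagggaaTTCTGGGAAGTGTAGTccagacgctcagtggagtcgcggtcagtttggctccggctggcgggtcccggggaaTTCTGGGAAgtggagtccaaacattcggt
ZNF234 (chr19:44141304-44141553, plus strand): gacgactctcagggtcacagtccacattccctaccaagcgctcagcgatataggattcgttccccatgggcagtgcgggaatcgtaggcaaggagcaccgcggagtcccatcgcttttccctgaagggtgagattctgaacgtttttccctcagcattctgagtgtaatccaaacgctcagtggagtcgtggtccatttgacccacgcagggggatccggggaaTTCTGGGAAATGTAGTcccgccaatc
ZNF226 (chr19:44164850-44165099, plus strand): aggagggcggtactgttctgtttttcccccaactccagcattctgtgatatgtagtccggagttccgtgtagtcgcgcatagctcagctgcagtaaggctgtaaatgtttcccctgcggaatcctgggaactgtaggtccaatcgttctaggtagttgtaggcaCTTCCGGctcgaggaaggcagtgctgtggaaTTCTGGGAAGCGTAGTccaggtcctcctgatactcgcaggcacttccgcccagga
ZNF227 (chr19:44212282-44212531, plus strand): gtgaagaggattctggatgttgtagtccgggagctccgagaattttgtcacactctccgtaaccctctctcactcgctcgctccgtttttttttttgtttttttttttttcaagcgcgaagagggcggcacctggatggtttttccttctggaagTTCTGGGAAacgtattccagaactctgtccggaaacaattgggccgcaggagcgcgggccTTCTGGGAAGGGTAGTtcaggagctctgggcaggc
ZNF180 (chr19:44500523-44500772, minus strand): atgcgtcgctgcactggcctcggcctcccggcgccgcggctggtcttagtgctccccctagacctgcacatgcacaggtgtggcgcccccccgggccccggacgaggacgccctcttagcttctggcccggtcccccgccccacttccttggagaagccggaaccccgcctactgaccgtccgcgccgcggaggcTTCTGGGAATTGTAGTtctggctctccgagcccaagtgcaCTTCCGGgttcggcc
ZNF549 (chr19:57527106-57527355, plus strand): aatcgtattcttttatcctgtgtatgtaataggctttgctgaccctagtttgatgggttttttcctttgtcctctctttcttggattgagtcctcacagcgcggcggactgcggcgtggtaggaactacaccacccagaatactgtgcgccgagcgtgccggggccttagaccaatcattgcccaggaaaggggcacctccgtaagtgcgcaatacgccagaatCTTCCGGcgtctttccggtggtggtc

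In ZNF227 the ZNF143 letters begin 95 and 35 bases before the start, and in ZNF230 the letters CTTCCGG, the ETS core on the other strand, begin 8 bases before it. Of the 9 promoters of the run, 8 held TTCTGGGAA, 8 held the longer form and 5 held the ETS core. ZNF224 (0.47) and ZNF234 (0.09), which stayed within 1.5-fold, hold TTCTGGGAA and the longer form, and ZNF45 (0.57) holds the longer form. Over the 242 members with a promoter, TTCTGGGAA was in 15 (6.20%), against 77 of 9036 other measured genes (0.852%) and 0.908% of all 35116 promoters. The longer form was in 19 members (7.85%), 98 other measured genes (1.08%) and 0.567% of all promoters. Of the 15 members 8, and of the 19 also 8, belong to the run in which these letters were picked. Their excess over other genes was thus partly fixed in advance. The ETS core was in 74 members (30.6%), in 15.5% of the other measured genes and in 8.52% of all promoters, and 74.1% of its 85 matches in members began within 100 bases of the start. Promoters of members had a median GC content of 62.2% and a median of 18.5 CG pairs, those of other measured genes 64.8% and 21 pairs.

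Within the members the medians were higher with the ETS core and the ZNF143 letters than without them, most for TTCTGGGAA, and no test was run. The 74 members with the ETS core had a median difference of 0.42 and 32.4% were at least 1.5-fold higher, while the 168 without it had 0.30 and 23.8%. The share at least 1.5-fold lower was 4.05% with the ETS core and 3.57% without it, and ZNF638, ZNF407 and ZNF609, among the largest decreases, hold it. In other genes the ETS core went with 0.14 (1400 genes) against 0.12 without it (7636 genes). Members with the ETS core were also shorter, at a median of 18.6 kb against 23.4 kb. Among members under 27.6 kb, the median length of all measured genes, the median difference was 0.47 with it (51 members) and 0.42 without it (99 members). Of these, 39.2% and 32.3% were at least 1.5-fold higher. The 15 members with TTCTGGGAA had a median of 0.61, and 8 of them (53.3%) were at least 1.5-fold higher and 0 lower. The 227 without it had 0.32, with 24.7% higher and 3.96% lower. But 8 of the 15 belong to the run through which the letters were found, so this gap supports nothing. For the longer form the medians were 0.45 with it (19 members) and 0.33 without it (223 members), and 8 of the 19 belong to the same run. With the longer form 31.6% of members were at least 1.5-fold higher and 10.5% lower, and without it 26.0% and 3.14%. ZNF573 and ZNF451, both lower with the anti-miR, hold the longer form as well. In other genes TTCTGGGAA went with 0.20 (77 genes) against 0.12 without it (8959 genes). The longer form did not, with 0.11 (98 other genes) against 0.12 without it (8938 other genes). GGGCGG, bound by SP factors, was in 63.6% of members and 66.9% of other genes, and CACGTG (USF) in 4.96% of members and 9.24% of other genes. TGACGTCA (CRE) was in 4.13% of members and 2.82% of other genes, and TATAAA in 3.31% of members and 5.81% of other genes. AAGATGGC (YY1) was in 2.07% of members and 1.79% of other genes, TTCCCGCC (E2F) in 4.96% of members and 4.64% of other genes, and the NRF1 palindrome in 2.07% of members and 1.99% of other genes. A match of letters describes the sequence and shows no binding.

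Gene length went with the difference in members as in other genes. All genes were split by length into 4 bands of equal size. In the shortest band, up to 11.1 kb, the 57 members had a median difference of 0.46, against 0.26 in 2758 other genes, and 29.8% against 12.4% were at least 1.5-fold higher. In the second band, up to 27.6 kb, 121 members had 0.43 against 0.23, with 33.9% against 11.4% higher. In the third, up to 66.2 kb, 76 members had 0.15 against 0.08. In the longest band, from 66.2 kb, 31 members had -0.29 against -0.39 in 2785 other genes, and 9 of the 31 (29.0%) against 40.2% were at least 1.5-fold lower. No member under 27.6 kb was at least 1.5-fold lower, while 1.96% and 4.23% of the other genes in the first and second band were. Pearson's r between log10 length and difference was -0.44 over 285 members and -0.47 over 10976 other genes, which share the 2 arrays and are not independent. Among genes under 27.6 kb, 81 members of chromosome 19 had a median of 0.47 and 97 members elsewhere 0.38. Other genes of this length had 0.27 on chromosome 19 and 0.24 elsewhere. Among longer genes the medians were 0.24 for 35 members of chromosome 19 and -0.03 for 72 members elsewhere, and 0.18 and -0.12 for other genes. The level did not go with the difference in the same way: r with the mean level was -0.05 over the members, and in 4 such bands of level the members' median lay between 0.24 and 0.38 and that of other genes between 0.08 and 0.15.

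**Figure D4:**
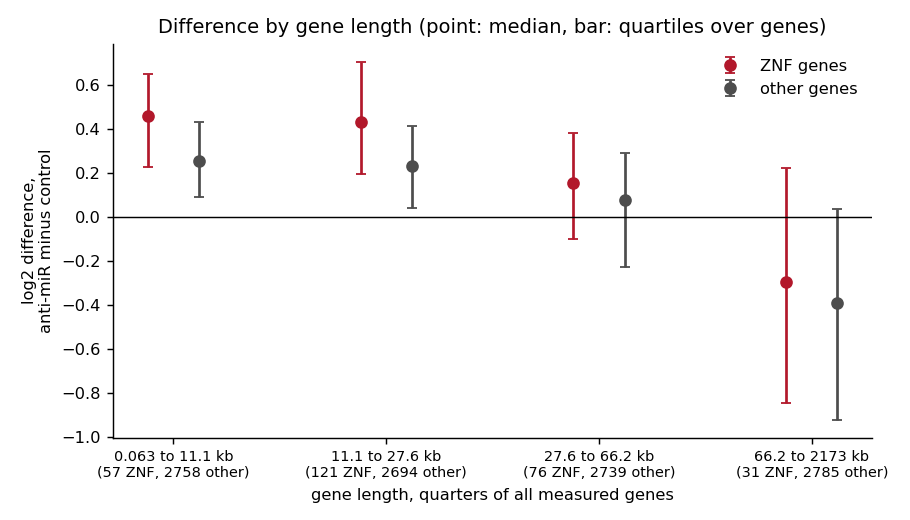
Log2 difference (vertical axis, anti-miR-361-3p minus non-target control) by band of gene length in kb for ZNF genes (red) and other genes (grey); points are medians and bars the quartiles over genes, not an error of replicates. Both groups are lower in the longest band, at -0.29 and -0.39, and the ZNF median lies above that of the other genes in all 4 bands.

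Members with known functions were also grouped by role, in lists chosen with earlier results of these data known. The counts of each list stand beside 8.23% higher and 14.2% lower over all genes, and lists this short say little against those shares. Among KRAB repressors of retroelements, imprinted loci and other targets, 7 of 9 were measured, 2 (28.6%) were at least 1.5-fold higher and 0 lower, with a median of 0.47. ZNF202, a repressor of lipid metabolism genes, differed by 0.78 ± 0.36 (SD over 4 probe sets), and ZNF268 by 1.29 as given above. ZNF10, the gene in which the KRAB domain's repression was much studied, had 5.17 with the anti-miR and 4.67 with the control oligo. ZNF274, which brings SETDB1 to the 3' ends of ZNF genes, had 5.65 with the anti-miR and 5.29 with the control oligo, with probe sets at 0.71 and 0.01. ZNF91, a repressor of young retroelements, had 6.31 with the anti-miR and 6.08 with the control oligo, and ZNF445, a guardian of imprinted loci, 5.80 with the anti-miR and 5.73 with the control oligo. Of this list ZNF202 and ZNF268 alone passed 1.5-fold.

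Of 11 listed chromatin partners 10 were measured, with a median of -0.08. By 1.5-fold 1 (10%) was higher and 2 (20%) were lower, near the shares over all genes of 8.23% and 14.2%. ZNF335, a subunit of histone methyltransferase complexes linked to microcephaly, had 6.54 with the anti-miR against 5.56 with the control oligo (1 probe set), while ZNF462 and ZNF827 were lower, as given above. ZNF644, a partner of the histone methyltransferase G9a, differed by -0.54 ± 0.11 (SD over 6 probe sets). ZNF410, an activator of CHD4, was nearly equal on the arrays at 7.04 with the anti-miR and 7.07 with the control oligo (difference -0.03 ± 0.10, SD over 9 probe sets). ZNF217, an oncogene product in co-repressor complexes, had 8.17 with the anti-miR and 8.25 with the control oligo. ZNF592 and ZNF687, partners of ZMYND8, differed by 0.25 and 0.37, their relative ZNF532 by -0.29 with 5 probe sets from -0.81 to 0.04, and ZNF518B by -0.08.

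Among promoter-binding factors 5 of 6 were measured, 0 higher and 1, ZNF148, lower (20%, against 14.2% of all genes). ZNF143, which binds the promoter element shown above, had 6.44 with the anti-miR and 5.88 with the control oligo (1 probe set), and its relative ZNF76 had 4.99 with the anti-miR and 4.78 with the control oligo. ZNF281 differed by 0.47 and ZNF24 by 0.10. Of 7 listed genes with roles in epithelium or cancer 5 were measured and 1 was higher (20%, against 8.23% of all genes): ZNF503 differed by 0.82, with probe sets at 1.43 and 0.20. ZNF185, an actin-associated LIM protein of keratinocytes that has no finger of the usual type, had 7.28 with the anti-miR and 7.68 with the control oligo, and ZNF395 differed by -0.35 with probe sets from -0.60 to 0.13. ZNF703, a breast cancer gene, differed by 0.10.

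All 9 listed RNA-binding and ribosome-linked members were measured, with a median of 0.19. Of these 2 (22.2%, against 8.23% of all genes) were higher and 1 (11.1%, against 14.2%) was lower. ZNF330, a nucleolar protein, had 8.58 with the anti-miR against 7.62 with the control oligo, a difference of 0.96 ± 0.04 (SD over 4 probe sets), and all its probe sets lay above the nonspecific range on both arrays. ZNF593, a ribosome assembly factor, had 8.11 with the anti-miR against 7.52 with the control oligo, 1.503-fold higher and at the edge of the threshold (1 probe set). ZNF598, the ubiquitin ligase of collided ribosomes, had 8.14 with the anti-miR and 7.84 with the control oligo, ZNF326 8.35 with the anti-miR and 8.16 with the control oligo, and ZNF346, a binder of double-stranded RNA, 7.03 with the anti-miR and 6.90 with the control oligo. ZNF638 is the lower member of this list.

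Of 24 listed co-repressors with which KRAB zinc finger proteins work 23 were measured, with a median of -0.16, against 0.13 over all genes. None was at least 1.5-fold higher, against 8.23% of all genes, and 8 (34.8%) were lower, against 14.2%. TRIM28, the scaffold bound by the KRAB box, had 8.89 with the anti-miR and 8.39 with the control oligo (difference 0.50, 1 probe set), and SETDB1 had 6.19 with the anti-miR and 6.33 with the control oligo. The chromatin remodeller ATRX had 4.93 with the anti-miR against 7.70 with the control oligo (6.85-fold lower, 5 probe sets from -3.56 to -2.51). TASOR and PPHLN1, subunits of the HUSH silencing complex, were 2.84-fold and 2.21-fold lower, and SUMO2, a ubiquitin-like modifier, had 10.7 with the anti-miR against 11.7 with the control oligo. The median length of the listed co-repressors was 43.6 kb, against 21.8 kb for the members.

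Other zinc finger families are set beside all genes, of which 8.23% were at least 1.5-fold higher and 14.2% lower. The ZSCAN and ZKSCAN genes, which share finger arrays and a SCAN domain with part of the ZNF genes, had a median of 0.48 over 14 measured genes, with 5 (35.7%) higher and 0 lower. The ZC3H genes, with fingers that bind RNA, had 0.29 over 13 genes (2 higher, 1 lower), and the RNF genes, named for the RING finger of ubiquitin ligases, 0.26 over 53 (8 higher, 4 lower). The ZBTB genes, with fingers and a BTB domain, had 0.18 over 29 genes (2 higher, 5 lower, or 6.90% and 17.2%, near the shares over all genes), the ZFP genes -0.03 over 8 (1 higher, 0 lower) and the KLF and SP transcription factor genes -0.05 over 16 (1 higher, 4 lower). The ZDHHC palmitoyltransferases had 0.01 over 16 genes (0 higher, 2 lower) and the ZMYM and ZMYND genes -0.50 over 9 (0 higher, 3 lower). Relative to the median of all genes, 0.13, the ZFP, KLF and SP, ZDHHC and ZMYM and ZMYND medians lay on the lower side and the others on the higher side. The ZMYM and ZMYND genes were also the longest of these families, with a median length of 59.0 kb.

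**Figure D5:**
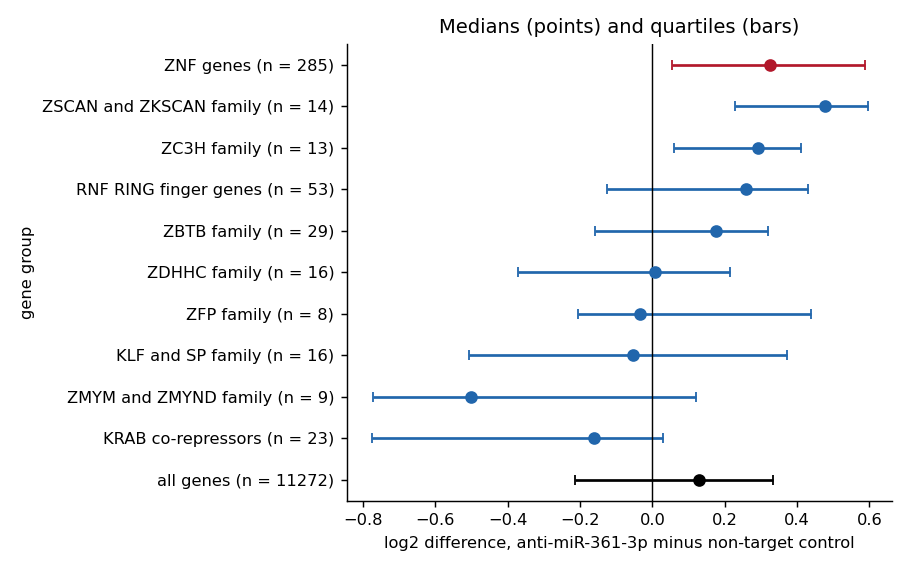
Median (point) and quartiles over genes (bar) of the log2 difference, anti-miR-361-3p minus non-target control, for the 285 ZNF genes, 8 other finger families, 23 co-repressors of KRAB proteins and all 11272 genes. The ZNF genes (0.33) and the ZSCAN and ZKSCAN genes (0.48) lie to the right of all genes (0.13), and the ZMYM and ZMYND genes (-0.50) and the co-repressors (-0.16) to the left.

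Just inside the threshold on level that chose the members were ZNF429, at 4.65 with the anti-miR and 4.52 with the control oligo, ZNF626 (4.52 with the anti-miR and 4.65 with the control oligo) and ZNF782 (4.42 with the anti-miR and 4.66 with the control oligo). Just outside were ZNF431 (4.51 with the anti-miR and 4.62 with the control oligo), ZNF808 (4.63 with the anti-miR and 4.30 with the control oligo) and ZNF100 (3.97 with the anti-miR and 4.602 with the control oligo). The 509 retained probe sets of members had a median difference of 0.28, the 279 dim probe sets of the same genes 0.10 and the 392 probe sets of ZNF genes without a retained probe set 0.09. Dim probe sets of all genes with 1 symbol, 21126 in number, had a median difference of 0.08.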

How the data were processed

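RNA from GFP-SAS cells was hybridised to Affymetrix 3' arrays, 1 per group. The deposited values are log2 expression per probe set, made by the authors with RMA, per the submitters' processing notes; its version, the set of arrays normalized together and the genome build were not given in the sources used here. Here the number of arrays limits the precision.

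Of 49386 probe sets, 45259 had 1 gene symbol in the platform annotation, 1327 several and 2800 none. Control probe sets (93) were left out of gene values. All 285 members matched the RefSeq table of GRCh38.p14 by Entrez ID (281 protein-coding genes, 4 pseudogenes), used for names, chromosome, order and length. Genes were counted at 1.5-fold, with no test, since each group holds 1 array. The genes named are the 12 largest increases, the 12 largest decreases, the 6 highest mean levels and the members of the role lists, and of the co-repressors the 4 largest differences with TRIM28 and SETDB1. The runs of neighbours, the promoter letters and the genes named with them were chosen after their values were seen. Members and lists were chosen with earlier results of these data known. The planned split by KRAB box needs protein sequences, which were not used here. The counting code was run on simulated data, with planted differences well above 1.5-fold and less noise than between probe sets here. That run checks the code alone and gives no support to the counts. The tools were pandas 2.3.3, numpy 2.4.6, statsmodels 0.14.6, scipy 1.17.1 and matplotlib 3.10.9 under Python 3.11.15.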

Additional observations from a re-analysis of the deposited data

Results flagged for a closer look

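Probe sets assigned to several ZNF genes stand outside the gene values of the report. Of 18 such probe sets 7 reached the array's median on either array, that of ZNF284 and ZNF223 with the anti-miR only. Of the 7, 4 passed 1.5-fold on the higher side with the anti-miR, against 8.23% of all measured genes and 25.3% of the members. So few probe sets say little against those shares. They were not used for the gene values, but ZNF223, ZNF181, ZNF302 and ZNF658 are members through other probe sets. The probe set shared by ZNF286A and ZNF286B had 8.36 with the anti-miR against 7.43 with the control oligo, a difference of 0.94. The probe set of ZNF284 and ZNF223 differed by 0.67, that of ZNF181 and ZNF302 by 0.64, and that of ZNF658 and ZNF658B by 0.63. The other 3 were short of 1.5-fold, with ZNF443 and ZNF799 at 0.55, ZNF20 and ZNF625 at 0.13, and ZNF33A and ZNF33B at -0.38.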

How the results depend on the processing

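No paired analysis was possible because there is 1 sample in each group. Leaving out an array was not possible, and the planned medians with and without a KRAB box were not run, since they need protein sequences. Against 72 members higher and 12 lower, a 75th percentile filter gave 32 higher (30.8%) and 9 lower (8.65%) of 104 members. All genes then had 12.2% and 18.8%. Members with several agreeing probe sets gave 32 and 8 of 105 (30.5% and 7.62%), against 9.22% and 21.4% of all such genes. No filter gave 56 and 7 of 491 (11.4% and 1.43%), against 4.397% and 7.37% of all genes. A 2-fold threshold gave 23 and 7 (8.07% and 2.46%), against 1.23% and 6.98%. Centring on the median gene gave 50 higher and 21 lower, a lowess trend 54 and 21. All genes then had 4.43% higher and 17.3% lower with centring, and 4.85% and 16.8% with the trend. Higher members made up 85.7% of the members past 1.5-fold, 70.4% after centring, 72.0% with the trend and 49.2% with the poly-A difference subtracted. Added after seeing the data, members above the nonspecific range gave 7 higher and 0 lower of 34, against 9.76% and 12.4% of all genes above it. Subtracting the poly-A difference, also added then, gave 32 and 33 (11.2% and 11.6%), against 1.86% and 23.2% of all genes. The median was then 0.0065 for all members, 0.11 for those of chromosome 19, -0.094 elsewhere (reversed) and 0.71 for the run from ZNF283 to ZNF180. Above the nonspecific range the chromosome 19 median was 0.14. With no filter the chromosome 19 median was 0.165 and that elsewhere 0.153. The run had 0.43 with no filter and 1.35 with the 75th percentile filter. The median of all members lay between 0.16 and 0.38 in the other settings. It was lowest with no filter, where the median of all genes was 0.10. Of 513 alternative values of named members 430 moved by less than 0.29, the pooled SD between probe sets, 83 moved by more, and 0 of the called ones changed sign. Part of both counts was fixed in advance. Subtracting the poly-A difference, 0.32, moves each of the 56 named members by more than that SD. Centring, by 0.13, moves each by less. Signal over background limits most members, since 251 of 285 lay within the nonspecific range.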

Other observations

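ZNFX1, whose symbol has a letter between ZNF and its number and which is therefore no member, encodes a helicase-like RNA sensor with zinc fingers. It had 6.65 with the anti-miR against 5.52 with the control oligo, 2.19-fold higher, with a difference of 1.13 ± 0.01 (SD over 2 probe sets). ZNF436-AS1, an antisense transcript, differed by -0.09, with probe sets at 0.14 and -0.33. The 4 ZNF pseudogenes among the members had a median difference of 0.02, and none of them reached 1.5-fold.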
